A study of Mus musculus with 6 samples.

Results

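The miRNAs described here are those of the miR-297, miR-466, miR-467 and miR-669 families, known for the dense miRNA cluster inside an intron of the mouse gene Sfmbt2. They were chosen by name alone, as every non-control entry of the scanner files with 1 of these 4 family numbers, and came to 61 of the 1247 miRNAs on the array. The study compared 2 populations of mammary cells sorted from virgin, wild-type FVB/N-J mice. P4 (Lin-CD24+CD29hi) is enriched for mammary stem cells, and P5 (Lin-CD24+CD29lo) is enriched for luminal cells, or luminal progenitors in another field of the same labels. Each population was hybridised to 3 single-colour Agilent miRNA arrays. The gates are surface-marker enrichments and not pure cell types, no age is given in the labels, and the labels do not say whether replicates are separate mice, pools or sorts. A p-value here therefore reflects only how far these arrays vary, which may be technical.

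Sfmbt2 encodes a protein of the Polycomb group. In the mouse it is imprinted and expressed from the paternal allele in extraembryonic tissue, and the miRNA cluster in its intron is known as a rodent-specific set of tandem duplicates that is abundant in placenta and embryonic stem cells. A miRNA hairpin gives a 5p and a 3p strand, and the seed (bases 2 to 8) of the loaded strand is the main part that pairs with target RNAs. The copies of this cluster are rich in alternating UG on the 5p side and CA on the 3p side of their hairpins, so many mature strands differ by few bases.

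The family names were only in part a guide to the locus. In a RefSeq gene table of GRCm38.p6, 81 miRNA genes carry these family numbers, of which 71 lie within Sfmbt2 on chromosome 2 and 10 lie elsewhere. Of the 61 members, 50 matched only genes within Sfmbt2, 8 matched only genes elsewhere, and 3 (miR-297a-3p, miR-466f-3p and miR-466f-5p) matched genes of both kinds. The 8 from elsewhere were miR-466i-3p, miR-466i-5p, miR-466j, miR-466k, miR-466q, miR-467f, miR-467g and miR-669n. Mir466i lies within Cdk13 on chromosome 13, Mir467f within Fxr2 on chromosome 11, Mir466q within Tnik and Mir669n within Slc30a7 on chromosome 3, and Mir467g within Grk4 on chromosome 5. The signal of a mature strand encoded by several copies cannot be assigned to any one of them.

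RefSeq mature sequences (GRCm38.p6) were at hand for 7 members, all from outside Sfmbt2, and are shown because they display the 2 sequence types of these families and 3 of them were detected on all 6 arrays. Capitals mark the seed.
miR-466i-3p (chr13:17747552-17747573, plus strand): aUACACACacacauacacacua
miR-467f (chr11:69635419-69635439, minus strand): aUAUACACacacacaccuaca
miR-466q (chr3:28419988-28420007, plus strand): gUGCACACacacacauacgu
miR-467g (chr5:34732872-34732892, minus strand): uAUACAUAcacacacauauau
miR-669n (chr3:115979905-115979924, plus strand): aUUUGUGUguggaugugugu
miR-466j (chr10:60960802-60960824, plus strand): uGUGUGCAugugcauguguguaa
miR-466k (chr3:85467396-85467418, plus strand): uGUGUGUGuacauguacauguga

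The first 4 are built on CA: A and C make up 86.4% of miR-466i-3p, 85.7% of miR-467f, 70.0% of miR-466q and 71.4% of miR-467g. The other three are built on UG: G and U make up 90.0% of miR-669n, 73.9% of miR-466j and 69.6% of miR-466k. An unbroken run of at least 4 repeats of CA, AC, UG or GU was present in 6 of the 7, all but miR-466j, and in 13 (0.774%) of the 1679 mature miRNAs in that table. The other 54 members are not in the table, so that share leaves them out. The 3 members among the 7 that were detected on all 6 arrays were the CA-built miR-466i-3p, miR-467f and miR-466q.

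Most members were undetected in both populations. By Agilent's detection flag per miRNA, 40 of 61 members (65.6%) were detected on no array, against 772 of all 1247 miRNAs (61.9%), and 7 members (11.5%) were detected on all 6 arrays, against 23.5% of all miRNAs. All 3 members of the miR-297 family were undetected. At least 1 array detected 7 of the 23 members of the miR-466 family, 5 of the 12 of the miR-467 family and 9 of the 23 of the miR-669 family. Of the 50 members matched only to Sfmbt2, 14 were detected on at least 1 array and 2 (miR-466h-3p and miR-669p-3p) on all 6. Of the 8 members from elsewhere in the genome, 6 were detected on at least 1 array and 4 (miR-466i-3p, miR-466i-5p, miR-466q and miR-467f) on all 6. miR-466f-3p, which matches genes of both kinds, was the seventh detected throughout. By gene name, the Sfmbt2 cluster thus does not cover 4 of these 7, while miR-466f-3p cannot be assigned, and the miRNAs are called by their families here. Whether probes for strands that differ by few bases take up signal from one another was not tested. The loci given are those of the names.

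**Figure D1:**
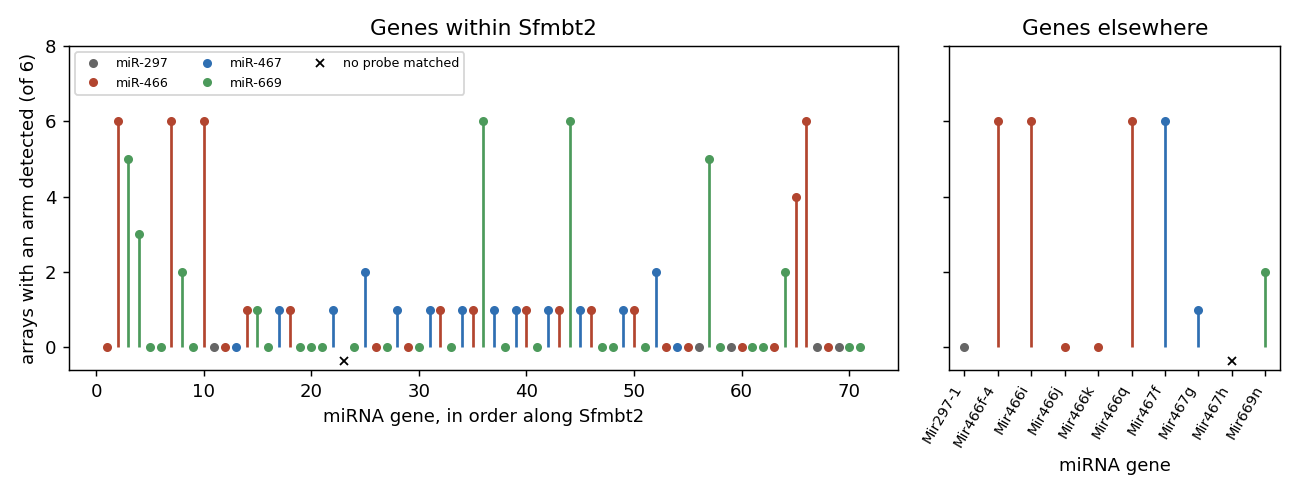
Each stem is 1 miRNA gene of the 4 families and its height is the number of arrays, of 6, on which a mature strand of that name was detected. Left, the 71 genes within Sfmbt2 in their order along the gene; right, the 10 genes elsewhere. Copies that share a mature name share a height, crosses mark genes with no matching probe, and most stems in Sfmbt2 stay at 0 or 1.

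Detection was uneven between arrays. The P4 arrays detected 7, 9 and 11 members (9 ± 2.0, SD, n = 3) and the P5 arrays 19, 19 and 10 (16 ± 5.20, SD, n = 3), so P5 replicates 1 and 2 stood above all others while P5 replicate 3 lay within the range of P4. The same 2 arrays were the brightest of the set: the scaling signal, the 75th percentile of miRNAs detected on all arrays, in intensity units was 186, 382 and 273 on the P4 arrays and 526, 457 and 315 on the P5 arrays. They also detected the most miRNAs over the whole array, with 26.1%, 30.8% and 29.5% of all miRNAs on the P4 arrays and 33.4%, 33.6% and 29.4% on the P5 arrays. The part of brightness in the detection counts was not tested. Of the 61 members, 0 were detected in P4 only and 10 in P5 only. Of all 1247 miRNAs, 32 were detected in P4 only and 70 in P5 only.

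**Figure D2:**
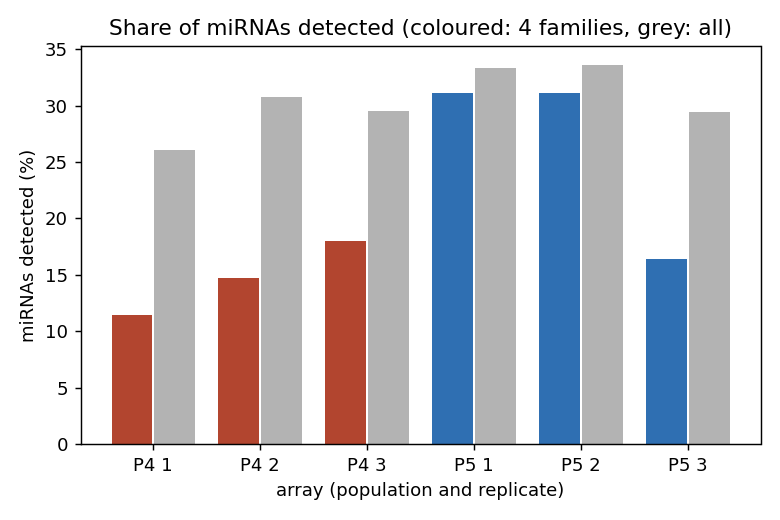
Bars give the percentage of miRNAs detected on each array, coloured for the 61 members (red P4, blue P5) and grey for all 1247 miRNAs. The members range from 11.5% on P4 replicate 1 to 31.1% on P5 replicates 1 and 2, and come close to the grey bar only on those 2 P5 arrays.

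The members detected in P5 only fell into small groups. Among them 6, miR-467b-5p, miR-467e-5p, miR-669e-5p, miR-669l-5p, miR-669o-5p and miR-669n, were detected on P5 replicates 1 and 2 and on no other array. All but miR-669n are 5p strands, and miR-669n is built on UG as printed above. A further 2, miR-467a-3p and miR-467g, were detected on P5 replicate 1 alone, and 2, miR-466b-3p and miR-669a-3-3p, on P5 replicate 2 alone. miR-669e-3p was detected on P4 replicate 3 and on P5 replicates 1 and 2. The 11 members detected on too few arrays to be tested had log2 scaled signals from the floor, -5.49, up to -3.92. On this scale 0 is the scaling signal of the array, and the floor is set from the signals of undetected miRNAs. A detected miRNA can lie at the floor, as miR-669o-5p did. An undetected one can lie above it, as miR-669l-5p did on P4 replicates 2 and 3. Among the 11, miR-669l-5p, a strand from Sfmbt2, had the largest difference between the population means. It was at the floor, -4.70 and -4.46 in P4 and at -4.04, -3.92 and -4.60 in P5. Its groups overlapped.

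The 2 strands of a hairpin were rarely seen together. Of 18 hairpins with both strands on the array, 9 had neither detected, 4 only the 3p strand, 3 only the 5p strand and 2 both. The 3p-only hairpins were miR-466f, miR-466h, miR-467a and miR-669f, and the 5p-only hairpins were miR-467b, miR-467e and miR-669l. miR-466i gave both strands on all 6 arrays, and miR-669e gave its 3p strand on 3 arrays and its 5p strand on 2. Over all members, 10 of 26 3p strands, 6 of 25 5p strands and 5 of 10 members with no strand in their name were detected on at least 1 array. Among 3p strands 4 were detected on all 6 arrays, and among 5p strands 1 was, miR-466i-5p.

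In all, 10 members were detected on all 3 arrays of at least 1 population and could be compared between P4 and P5. Levels of different miRNAs are not set against each other here, since probes differ in response. miR-466i-5p, from Cdk13, had background-subtracted spot intensities of 49.4, 100.1 and 116.6 on the P4 arrays and of 213.7, 198.3 and 105.4 on the P5 arrays. After scaling these were -1.91, -1.93 and -1.23 on the log2 scale in P4 and -1.30, -1.21 and -1.58 in P5. The unscaled values of 2 P5 arrays stood apart from all others, but after scaling P4 replicate 3 lay among the P5 arrays and the groups overlapped. Its partner strand miR-466i-3p was at -4.04, -4.34 and -3.31 in P4 and -3.64, -3.85 and -3.49 in P5. Here P4 replicate 3 was the highest of all 6 arrays.

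Both other members from outside Sfmbt2 had P4 replicate 3 above all other arrays. miR-467f, from Fxr2, was at -3.64, -3.90 and -2.92 in P4 and -3.27, -3.40 and -3.28 in P5. miR-466q, from Tnik, was at -4.30, -4.41 and -3.41 in P4 and -3.84, -3.93 and -3.80 in P5. In both, 2 P4 arrays lay below every P5 array and the third above every P5 array.

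Strands from Sfmbt2 included miR-466h-3p, detected on every array. It was at -3.69, -3.83 and -2.94 in P4 and -3.42, -3.30 and -3.30 in P5. miR-669p-3p was at -3.83, -3.71 and -2.95 in P4 and -3.24, -3.24 and -3.30 in P5. P4 replicates 1 and 2 lay below the narrow P5 range and P4 replicate 3 above it for both strands. miR-669c-3p was at -4.91, -4.73 and -3.78 in P4, with no detection on replicate 1, and -4.09, -4.28 and -4.09 in P5. miR-669f-3p was at -4.49, -4.10 and -3.68 in P4, with no detection on replicate 1, and -3.83, -3.67 and -3.99 in P5. For miR-669f-3p P4 replicate 3 lay within the P5 range and not above it. miR-466g was at the floor on P4 replicates 1 and 2 and at -4.92 on replicate 3, against -5.18, the floor and -4.77 in P5. It was detected on P4 replicate 3 and on all 3 P5 arrays, so with 3 of its 6 values at the floor its difference carries little information. miR-466f-3p, encoded by 3 genes within Sfmbt2 and by Mir466f-4 on chromosome 13, was at -4.50, -4.76 and -3.69 in P4 and -4.00, -4.27 and -3.85 in P5, with P4 replicate 3 the highest of the 6 arrays.

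**Figure D3:**
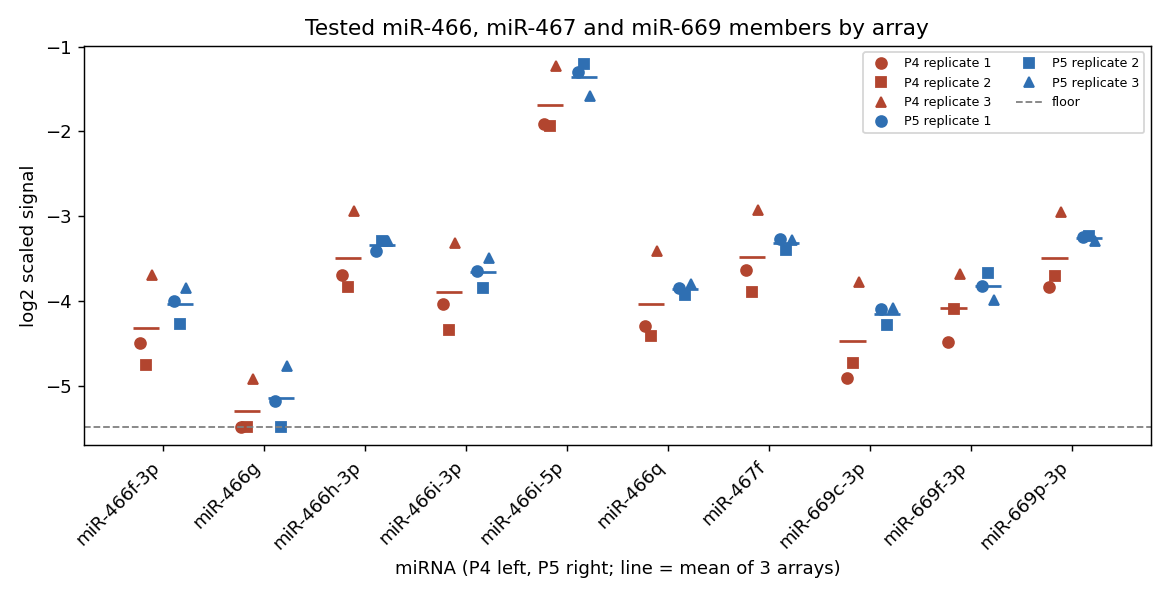
Points give the log2 scaled signal of the 10 tested members on each array, P4 (red) left of P5 (blue), with symbols for replicates, a line for the mean of 3 arrays and a dashed line for the floor at -5.49. P4 replicate 3 (red triangle) is the highest P4 array for every one of the 10, and the 2 populations overlap in each.

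None of the 10 tested members passed the test between P4 and P5. With limma's moderated test and Benjamini-Hochberg adjustment over all 370 miRNAs tested, 0 of 10 were called at an adjusted p under 0.05, whereas 27.8% of all tested miRNAs were called, 13.8% higher and 14.1% lower in P4. At an unadjusted p under 0.05 the count was also 0 of 10, against 40.0% of all tested, and the lowest unadjusted p was 0.198. The groups overlapped in all 10, while 42.2% of all tested miRNAs had groups that did not. The 10 differences ran from -0.33 to -0.15 on the log2 scale (1.26-fold to 1.11-fold lower in P4), with standard errors of 0.23 to 0.30 and adjusted p of 0.314 to 0.656 in limma. Their median was -0.24, beside 0.0013 for all tested miRNAs.

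The strands from Cdk13 differed by -0.33 ± 0.23 (miR-466i-5p, 95% confidence interval -0.88 to 0.22) and -0.24 ± 0.28 (miR-466i-3p, -0.88 to 0.41; SE, n = 3 arrays each). miR-669c-3p, with the widest interval of the 10, differed by -0.32 ± 0.30 (-1.02 to 0.38), and miR-669p-3p by -0.24 ± 0.25 (-0.81 to 0.34). miR-466h-3p differed by -0.15 ± 0.25 (-0.73 to 0.43), miR-467f by -0.17 ± 0.26 (-0.77 to 0.43) and miR-466q by -0.19 ± 0.27 (-0.82 to 0.45). Over the 10 members the intervals spanned -1.02 to 0.45, so these arrays do not show the members to be equal in the 2 populations, and a difference near 2-fold was within the interval of miR-669c-3p.

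All 10 differences were below 0, as were 49.7% of those of all tested miRNAs. Among the 10, miR-466g, miR-669c-3p and miR-669f-3p had entered the test only through the P5 arrays. With normexp background correction and its offset of 50 added before scaling, 9 of the 10 were above 0 and their median was 0.31. That setting moved the median of all tested miRNAs to 0.29, and with no scaling it moved to -0.64, where the members stood at -0.89. Relative to all tested miRNAs, the median of the members was thus -0.24 in the values reported here, -0.25 with no scaling and 0.0125 with normexp. It was -0.47 with Agilent's summed signal. The authors' processed values gave the same and are no second reading, being that signal plus 1 shift per array and 1 constant per miRNA. With P4 arrays left out, the median of the members relative to all tested miRNAs ran from -0.46 without replicate 3 to -0.08 without replicate 1, with -0.11 without replicate 2. Under the summed signal the 3 tested members not detected on every array differed far more, miR-466g by -2.92, miR-669c-3p by -2.22 and miR-669f-3p by -2.27, and none was called (limma adjusted p = 0.202, 0.375 and 0.401). The 26 probes behind the 10 members, each printed in 10 or 20 copies, all differed below 0 in the scaled signal, from -0.43 to -0.03. Probes of 1 miRNA share the RNA sample and are no replicates.

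**Figure D4:**
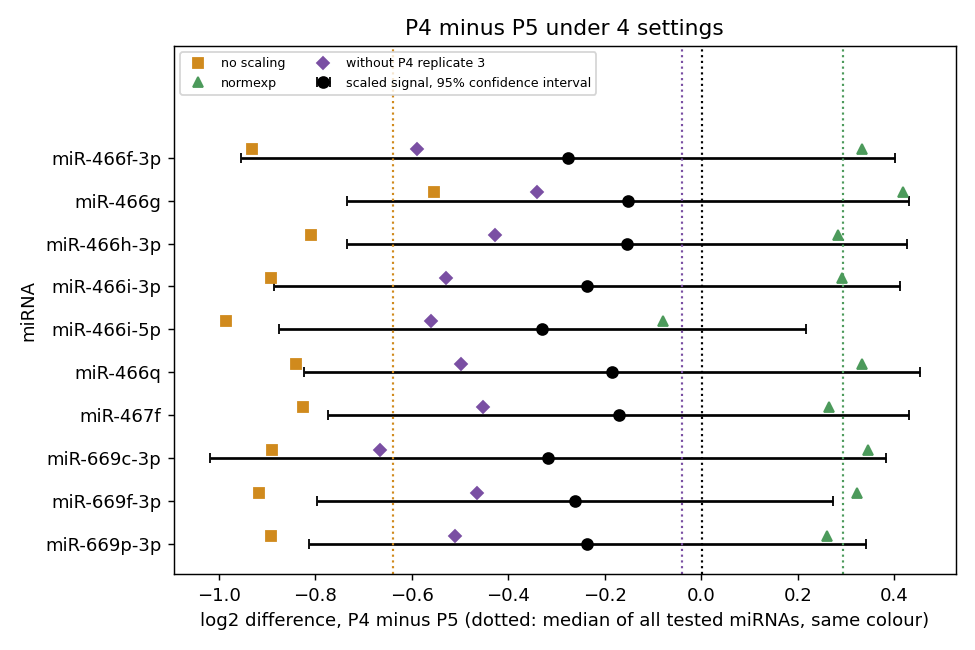
Black points with bars give the log2 difference, P4 minus P5, of the 10 tested members with its 95% confidence interval; coloured symbols give the same with no scaling, with normexp and without P4 replicate 3. Dotted lines mark the median of all tested miRNAs in the same setting, and every interval crosses 0.

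The tested members shared an order of arrays within P4. They may not be separate readings, since signal shared between probes of similar strands was not tested. Replicate 3 was the highest P4 array for 10 of 10 members, while it was the highest for 40.3% of all tested miRNAs. On that array the members lay 0.38 to 0.70 above their P4 mean on the log2 scale (median 0.56), and the median of all tested miRNAs lay 0.02 above. On P4 replicates 1 and 2 the medians of the members were -0.21 and -0.30. The P5 arrays lay closer together, with medians of 0.02, -0.08 and 0.05. The SD over arrays was accordingly larger in P4 for 9 of the 10 members, all but miR-466g, against 51.4% of all tested miRNAs. The median SD of the members was 0.49 in P4 and 0.14 in P5, and that of all tested miRNAs was 0.24 in P4 and 0.23 in P5.

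The brightness of the arrays had another order. In unscaled intensity P4 replicate 3 was still the highest P4 array for 9 of 10 members, all but miR-669f-3p, although P4 replicate 2 was the brightest for 78.6% of all tested miRNAs. The 95th percentile of the scaled signal of undetected miRNAs was 0.0319, 0.0218 and 0.0227 on the P4 arrays and 0.0165, 0.0160 and 0.0234 on the P5 arrays, and P4 replicate 3 did not stand out. With normexp the order was another: P4 replicate 1 was highest for 9 of 10 members and P4 replicate 3 for 1. With that correction P4 replicate 1 was also the highest for 75.1% of all tested miRNAs.

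**Figure D5:**
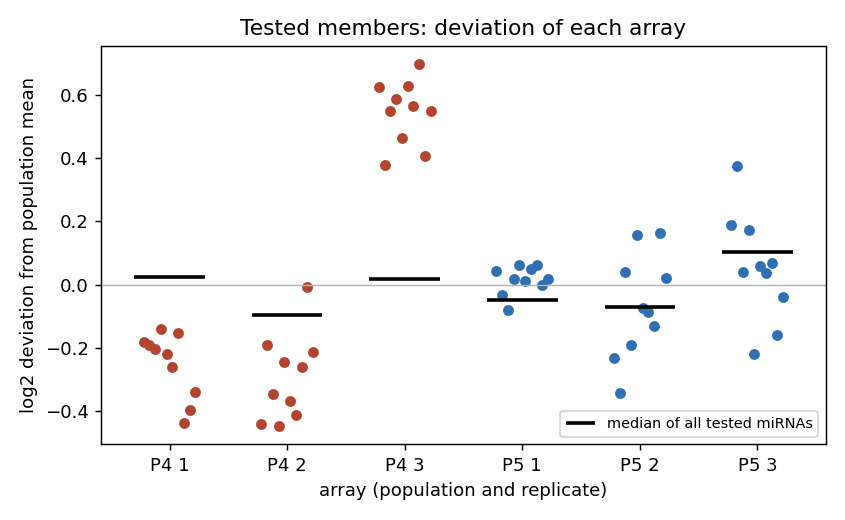
Points give the deviation of each tested member from the mean of its population on the log2 scale, by array, and black lines give the median of all tested miRNAs. On P4 replicate 3 all 10 members lie between 0.38 and 0.70, and on P4 replicates 1 and 2 all lie below 0.

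P4 replicate 3 was the highest of all arrays in markers of some other cell types and the lowest P4 array in others, as measured by the summed scaled signal of each marker list, in multiples of the scaling signal. The 2 endothelial strands of miR-126 summed to 8.09, 9.39 and 20.6 in P4 and 2.32, 1.92 and 0.767 in P5, and both were called higher in P4. The 6 leukocyte miRNAs summed to 1.11, 1.70 and 3.61 in P4 and 0.730, 1.01 and 0.861 in P5, with 2 called higher. The 4 fibroblast miRNAs (no array detected miR-127-3p or miR-214-3p) summed to 0.828, 1.11 and 2.19 in P4 and 0.141, 0.161 and 0.141 in P5, with 2 called higher. The 4 skeletal muscle miRNAs, with miR-206-3p undetected on all arrays, had replicate 3 lowest in P4, at 0.813, 0.601 and 0.488. On each P5 array the sum was 0.0891, and 3 were called higher in P4. The sums hold floored values, at 0.0223 each, and 0.0891 is the sum with all 4 at the floor. The 2 erythroid miRNAs, with miR-144-3p undetected throughout, summed to 0.0581, 0.0602 and 0.0770 in P4 and 0.0511, 0.0495 and 0.0445 in P5, and neither was tested. Here 0.0445 is the sum with both at the floor. Basal and myoepithelial markers also had P4 replicate 3 lowest in P4, at 44.4, 29.6 and 25.5, against 2.47, 2.51 and 1.86 in P5, and all 5 were called higher in P4. Luminal markers were at 12.3, 11.7 and 7.78 in P4 and 31.7, 26.5 and 31.4 in P5, with 7 of 8 called lower in P4 and miR-375-3p undetected throughout. These lists were written with earlier results of these data known, so they are no independent check of the labels. No list of stem cell markers was looked at. The part of these other cells in the signal of the members was not tested, and fewer cells of a type cannot be told apart from less RNA per cell in sorted bulk samples.

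Leaving out P4 replicate 3 changed the calls. It was the highest P4 array for 10 of 10 members, so each difference had to fall further below 0 without it. The median of the members was then -0.51, beside -0.04 for all tested miRNAs. Called lower in P4 were 2 members, miR-669c-3p at -0.67 ± 0.16 (limma adjusted p = 0.0267) and miR-669p-3p at -0.51 ± 0.15 (limma adjusted p = 0.0466). miR-669c-3p was undetected on P4 replicate 1, so it entered this fit only through the P5 arrays, where it was higher. In that fit 14.6% of all 377 tested miRNAs were called lower, so 2 of 10 is near the share over all miRNAs. Without P5 replicate 3, 17 members passed the detection filter, since fewer arrays then had to detect them, and 2 other strands from Sfmbt2 were called lower in P4, miR-467b-5p at -0.36 ± 0.08 (limma adjusted p = 0.0394) and miR-669e-5p at -0.49 ± 0.07 (limma adjusted p = 0.0196). Both were undetected in P4, at the floor on all 3 P4 arrays and on P5 replicate 3, so this filter let them in through the 2 arrays where they were high. With all 6 arrays neither was tested. In the fit without P5 replicate 3, 11.7% of all 411 tested miRNAs were called lower, again near the 2 of 17. Within the first row of the slide, which held the 3 P4 arrays and P5 replicate 1, the median of the members was -0.25. This difference rests on 1 P5 array, assumed to vary like the others.

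Other miRNAs with the same kind of repeats were looked at beside the members. RefSeq sequences were at hand for 1017 of the 1247 miRNAs on the array, so some with a run may be missed. Outside the 4 families 7 miRNAs on the array hold such a run in their RefSeq sequence, of which 4 were detected on at least 1 array and 3 were tested. They are printed for comparison with the UG-built members above, again with the seed in capitals.
miR-574-5p (chr5:64970328-64970350, plus strand): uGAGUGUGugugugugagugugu
miR-1187 (chr5:82798964-82798986, minus strand): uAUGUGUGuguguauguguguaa
miR-3082-5p (chr17:25831406-25831427, minus strand): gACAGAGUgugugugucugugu

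None of the 3 was called in limma, with differences of -0.09 ± 0.24 for miR-574-5p, -0.64 ± 0.28 for miR-1187 and -0.46 ± 0.29 for miR-3082-5p (SE, n = 3 arrays each; adjusted p = 0.793, 0.132 and 0.267). miR-1187 was at -3.36, -3.22 and -2.40 in P4 and -2.18, -2.22 and -2.65 in P5. As in the tested members, P4 replicate 3 was the highest P4 array for all 3. These 3 are built on UG, while the tested members with a printed sequence are built on CA. P4 replicate 3 lay within the P5 range for miR-1187, above it for miR-574-5p, and within it for miR-3082-5p.

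A list known from embryonic stem cells and trophoblast, where the Sfmbt2 cluster is abundant, was also looked at. Of 24 strands of the miR-290 to miR-295 and miR-302 and miR-367 clusters, 6 were detected on at least 1 array. Of all 1247 miRNAs, 38.1% were, so most of the array was undetected too. In the list 5 were tested and 0 called, against 27.8% of all tested miRNAs, with a median difference of 0.11. miR-290-5p was at -1.96, -2.10 and -2.11 in P4 and -2.57, -1.95 and -1.99 in P5. miR-290-3p was at -2.97, -3.79 and -3.85 in P4 and -4.52, -4.56 and -3.69 in P5, a difference of 0.72 ± 0.33 (limma adjusted p = 0.141). In both strands P4 replicate 1, and not replicate 3, was the highest P4 array.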

How the data were processed

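miRNA levels were measured on 6 single-colour arrays, 3 for P4 and 3 for P5 by the sample titles. Linear spot intensity was deposited by the authors as scanner output of Agilent Feature Extraction, version 11.0.1.1 in the headers and 11.0 in the submitters' processing notes. Its processed signal has the background subtracted but is not scaled from array to array. All arrays were on 1 slide and in 1 scan.

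Control spots and spots with an outlier flag were left out. Processed signals were averaged over the spots of a probe, then over the probes of a miRNA, divided by the 75th percentile of each array over the miRNAs detected on all arrays, floored at 0.0223 (from the 95th percentile of scaled undetected signal on each array, the median of the 6) and put on the log2 scale. Detection is Agilent's flag per miRNA. Tested were the 370 miRNAs detected on all 3 arrays of at least 1 population, with limma 3.58.1 in R 4.3.3 (2-sided, Benjamini-Hochberg over all 370, threshold 0.05). The fit was tested on simulated data. No spot was saturated, and the number of arrays limits the precision.

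A series matrix deposited by the authors, on the log2 scale, served as an alternative. Its values equal the log2 of Agilent's summed signal plus 1 shift per array and 1 constant per miRNA, within 9.39e-06; scale and direction are those of the scanner values, and the origin of the constants, and so the centring, is unknown. Column medians of the P4 arrays were 0.42, -0.36 and -0.06, and of the P5 arrays -0.56, -0.47 and 0.06. The file headers name the build mm9; coordinates printed are those of the RefSeq sequence table (GRCm38.p6), matched by name.

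The rule for named miRNAs took every called member and then tested members up to 15, which names all 10 tested. The members, lists and tests were chosen with earlier results of these data known.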

Additional observations from a re-analysis of the deposited data

How the results depend on the processing

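The count of tested members called, 0 in each direction, held under all alternatives that kept the 6 arrays (other scalings, Agilent's summed signal, normexp, the authors' processed values, other averaging, floors and filters, another eBayes setting and the replicate block), and 2 were called lower in P4 without P4 replicate 3 and 2 without P5 replicate 3, a range of 0 to 2 over the arrays left out. The median difference of the members, -0.24, was 0.31 with normexp, -0.90 with the values the authors processed (all tested miRNAs -0.43) and -0.89 unscaled, and ran from -0.51 to -0.06 without each array in turn. Over all tested miRNAs, 51 higher and 52 lower in P4 became 55 higher and 25 lower with normexp, 31 and 81 in the authors' values, 23 and 77 unscaled, 25 and 22 unfiltered and 29 and 23 when the row of the slide was a block, where P5 replicates 2 and 3 do not enter the difference and the median of the members relative to all miRNAs was -0.38, with 0 members called. Other scalings shifted the split, to 47 higher and 77 lower with the percentile taken over all miRNAs and 49 and 69 with quantile normalization. With normexp, which adds an offset of 50 to every spot before scaling, these members turned: miR-466f-3p to 0.33, miR-466g to 0.42, miR-466h-3p to 0.28, miR-466i-3p to 0.29, miR-466q to 0.33, miR-467f to 0.26, miR-669c-3p to 0.35, miR-669f-3p to 0.32 and miR-669p-3p to 0.26, with limma adjusted p of at least 0.152. The cause was not tested. Without P4 replicate 2, miR-466h-3p (0.018) and miR-467f (0.034) turned, their ranges over the arrays left out being -0.43 to 0.018 and -0.45 to 0.034, and miR-466g (0.035) turned without P5 replicate 3, with a range of -0.34 to 0.035. With the floor multiplied by 2, all values of miR-466g were at the floor and its difference was 0. Of 207 values of single members under the alternatives, 192 kept direction and call, 2 gained a call, and 13 turned or, in that 1 case, came to 0. The fits with another filter, another eBayes setting or the replicate block reuse the same differences, so there no direction could change. Kept directions include large moves: in the authors' values miR-466g was at -3.30, miR-669c-3p at -2.54 and miR-669f-3p at -2.59, with limma adjusted p of 0.141 to 0.338. The mean number of members detected, 9 in P4 and 16 in P5, was 4.33 and 9.33 where 0.5 of the spots or more had to be well above background, and 12.3 and 17.3 where the scaled signal had to exceed the floor.

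Pairing by the shared replicate numbers was unclear: deviations of same-numbered arrays correlated at -0.07, 0.37 and 0.09. P4 replicates 2 and 3 correlated best with their own number and replicate 1 with P5 replicate 3. With the replicate block 54 miRNAs were higher and 57 lower in P4, and 0 members were called. The median of the members was again -0.24, which a balanced block cannot change. The slide and the scan could not be fitted as blocks, since all arrays share them.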
